A study of Mus musculus with 9 samples.

Results

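Expression of the NF-kappaB transcription factor genes and of their feedback targets was compared between 3 stages of reprogramming of mouse fibroblasts to induced pluripotent stem (iPS) cells. The set was 10 genes chosen by symbol. The subunit genes were Nfkb1, Nfkb2, Rel, Rela and Relb. The genes of the I kappa B family were Nfkbia, Nfkbie and Nfkbiz, the deubiquitinase gene was Tnfaip3 and the cyclooxygenase gene was Ptgs2. Of the 10 genes, 9 had an array row that the probe table gives to that symbol alone, out of 19937 genes measured by such rows. No row is named for Nfkb1, which was not analysed here. Each of the 9 had 1 row, and no filter on low values was applied to it.

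The series held 9 arrays in 3 groups of 3. The fibroblasts were at passage 4, in feeder medium, and came from TSKM-iPS mice, TSKM standing for the reprogramming factors Tet1, Sox2, Klf4 and c-Myc, which doxycycline switches on in this secondary system. The TSKM-3D cells were the same kind of fibroblasts at passage 4 after 3 days of doxycycline, with the medium changed at the same time to embryonic stem cell medium with 15% serum and 1000 U/ml LIF, so that the 2 changes cannot be told apart. The iPS line, induced by the same factors, was at passages 10 to 15, in the same embryonic stem cell medium on mitomycin C-treated mouse embryonic feeder cells that were cleared by plating for 0.5 h before collection. All groups shared the strain label OG2-GFP/Rosa26-M2rtTA, an Oct4 reporter with a doxycycline-dependent activator expressed from the Rosa26 locus. The iPS cells also differed from the fibroblasts in passage, medium and feeder cells, which cannot be told apart from cell state. The 3 groups are called stages here, but the arrays are not shown to follow 1 culture over time. The fibroblast and iPS groups are each labelled as 1 line. Separate cultures or animals behind the 3 arrays of a group are not stated, so p-values reflect only how far those arrays spread, and that spread may be technical.

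NF-kappaB proteins are dimers of Rel-family subunits. In resting cells inhibitors of the I kappa B family, such as the Nfkbia product I kappa B alpha, hold many of these dimers in the cytoplasm. Signals from tumour necrosis factor, interleukin-1 and Toll-like receptors activate the I kappa B kinase complex, the inhibitor is degraded and the dimer enters the nucleus. Nfkbia and Tnfaip3, which encodes the ubiquitin-editing enzyme A20, are themselves induced by NF-kappaB and shut the signal down again. RELB with the NFKB2 product p52 forms the dimer of a slower, non-canonical branch. The arrays measure transcripts only, and nuclear entry of the proteins was not measured.

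Fibroblast and pluripotency markers separated the groups. Of 15 fibroblast markers 8 were lower and 1 higher (Twist1) in TSKM-3D cells than in fibroblasts, and 13 were lower in iPS cells than in fibroblasts. On the iPS arrays 13 or 14 of them still lay above the array median, against 15 on every fibroblast array. Of 12 pluripotency markers 12 were higher in iPS cells than in fibroblasts and 0 were called at TSKM-3D. Among all genes 10.8% were called in TSKM-3D cells against fibroblasts and 21.5% in iPS cells against fibroblasts. Of the introduced factors Myc and Sox2 were higher in TSKM-3D cells than in fibroblasts (11.44 against 9.84 and 6.55 against 5.15 on the log2 scale), while Klf4 stood at 8.53 against 8.49 and was not called. Tet1 was lower in TSKM-3D cells, at 6.97 against 8.10, although it is one of the induced factors. A row's signal may come from the gene's own transcript, an introduced one or both. Pou5f1, which is not among the introduced factors, was higher in TSKM-3D cells, at 7.48 against 5.63. The labels of the third fibroblast array conflict: its cell type reads as 3-day induced, but by title, source name and passage it is a fibroblast array, and it was used as one. Without that array the 18 differences of the 9 genes that involve fibroblasts moved by at most 0.04, and 0 calls changed. Placed with the TSKM-3D arrays instead, it left 0 genes called in TSKM-3D cells against fibroblasts, and the calls of Nfkbia and Tnfaip3 in iPS against TSKM-3D cells were lost as well. Across the array, the values of the third fibroblast array correlated at 0.9978 with fibroblast replicate 1 and 0.9984 with fibroblast replicate 2. Against TSKM-3D replicates 1 to 3 its correlations were lower, 0.9533, 0.9509 and 0.9548. Its Tnfaip3 value of 6.31 lay beside 6.34 and 6.41 on fibroblast replicates 1 and 2, against 8.80 to 9.05 on the TSKM-3D arrays. Tnfaip3 is itself tested below with this array as a fibroblast array, so its value is no separate check. Over 34760 rows the median of an array was 6.01 to 6.23, its lower quartile 4.54 to 4.76 and its upper quartile 8.05 to 8.27. In these mixed-cell RNA samples fewer cells of a type and less RNA per cell cannot be told apart.

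Levels below are log2 array values, given per array from replicate 1 to 3 in the order of the stages. A gene was called when its limma p, adjusted by the Benjamini-Hochberg method over all 19937 genes, was under 0.05 and its difference was at least 2-fold. Levels of different genes come from different probes and are not set against each other.

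**Figure D1:**
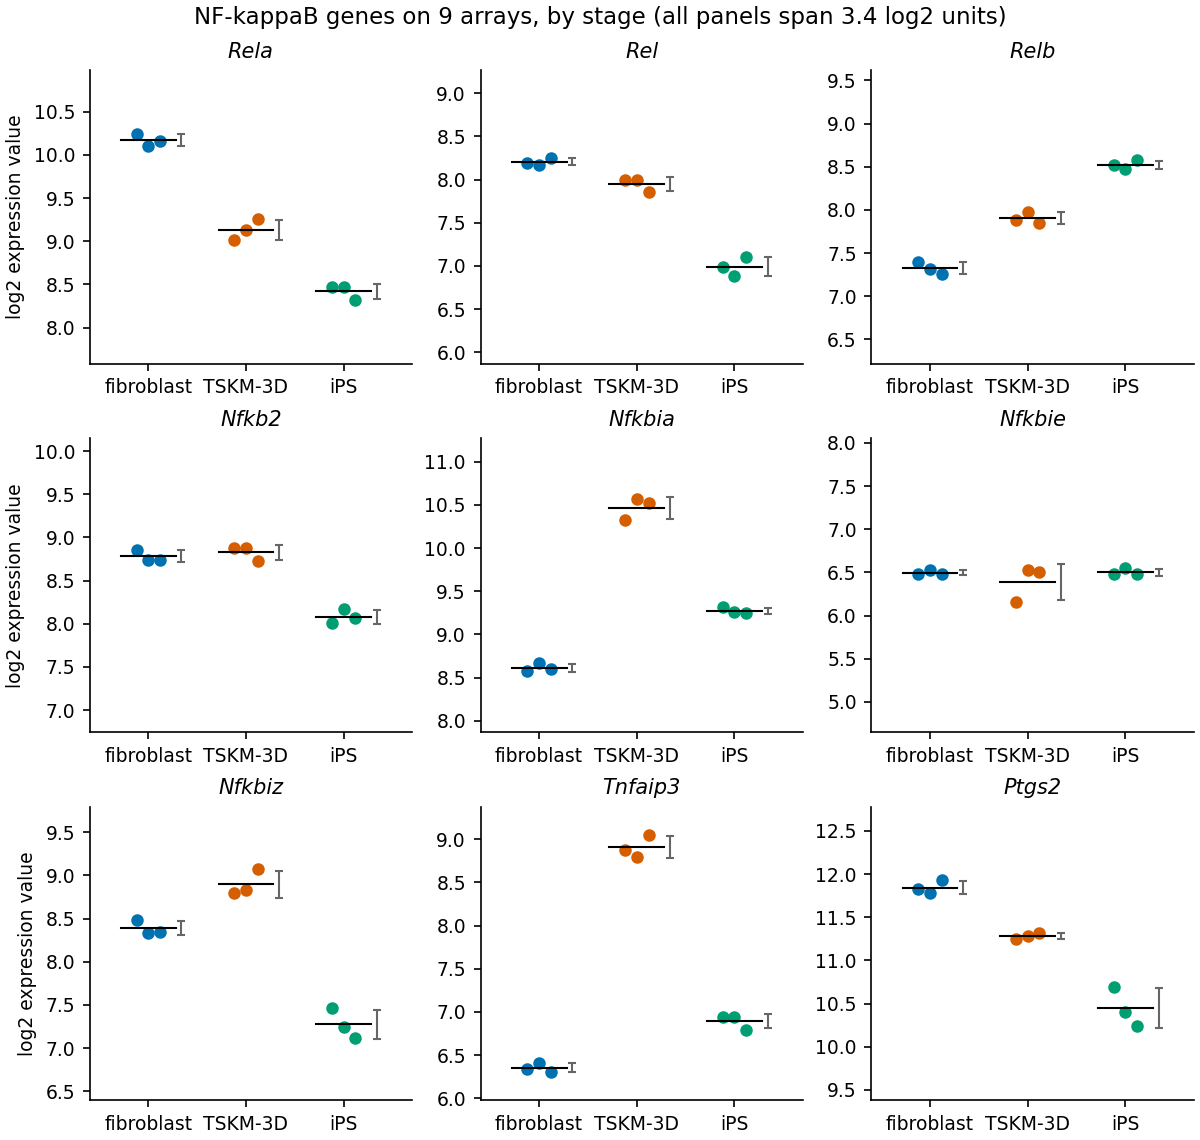
Log2 expression value (vertical axis) of the 9 genes on each of the 9 arrays, by stage on the horizontal axis, with points for arrays, black lines for group means and grey bars for 1 SD (n = 3). Nfkbia and Tnfaip3 peaked in TSKM-3D cells, where Tnfaip3 averaged 8.91 against 6.35 in fibroblasts, while Rela stepped down and Relb stepped up over the stages.

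The Rel-family subunits moved in different directions. Rela encodes p65, the main activating subunit of the canonical pathway. It read 10.25, 10.10 and 10.16 on the fibroblast arrays, 9.02, 9.13 and 9.25 on the TSKM-3D arrays, and 8.47, 8.48 and 8.32 on the iPS arrays (array row 10460631). The 3 groups did not overlap, and each stage lay below the one before it. Rela was 2.05-fold lower in TSKM-3D cells than in fibroblasts (log2 difference -1.04 ± 0.09 SE, adjusted p = 1.47e-06) and 3.37-fold lower in iPS cells than in fibroblasts (-1.75 ± 0.09, adjusted p = 7.21e-09). The first of these calls sat at the 2-fold line: its 95% interval ran from -1.23 to -0.85, and it was lost without TSKM-3D replicate 1 (-0.98) and after quantile normalization (-0.91). The difference of iPS cells from TSKM-3D cells was -0.71 ± 0.09, short of 2-fold.

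Rel encodes c-Rel, a subunit best known from lymphocytes. It read 8.19, 8.17 and 8.25 in fibroblasts, 7.999, 8.001 and 7.85 in TSKM-3D cells, and 6.99, 6.88 and 7.10 in iPS cells (array row 10384725). The groups did not overlap, and most of the difference lay between TSKM-3D and iPS cells. TSKM-3D cells differed from fibroblasts by -0.25 ± 0.08 (adjusted p = 0.0257), and iPS cells from TSKM-3D cells by -0.96 ± 0.08 (adjusted p = 1.31e-06), just short of 2-fold. That second difference passed 2-fold, at -1.08, with array medians set equal and, at -1.02, after quantile normalization, and also without TSKM-3D replicate 3 (-1.01) or iPS replicate 3 (-1.02). Against fibroblasts, iPS cells had 2.32-fold less Rel signal (-1.21 ± 0.08, adjusted p = 1.1e-07).

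Relb was the one measured subunit gene that was higher in iPS cells than in fibroblasts. It read 7.40, 7.32 and 7.26 in fibroblasts, 7.89, 7.98 and 7.85 in TSKM-3D cells, and 8.52, 8.48 and 8.57 in iPS cells (array row 10560575). The groups did not overlap, and both steps were of similar size, 0.58 ± 0.07 in TSKM-3D cells against fibroblasts and 0.62 ± 0.07 in iPS against TSKM-3D cells, neither reaching 2-fold. Relb was 2.30-fold higher in iPS cells than in fibroblasts (1.20 ± 0.07, adjusted p = 5.23e-08).

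Nfkb2 encodes p100, the precursor of p52. It read 8.86, 8.74 and 8.74 in fibroblasts, 8.88, 8.87 and 8.72 in TSKM-3D cells, and 8.01, 8.17 and 8.06 in iPS cells (array row 10463599). Fibroblast and TSKM-3D arrays overlapped, with a difference of 0.05 ± 0.08 whose 95% interval ran from -0.13 to 0.22. All iPS arrays lay below both other groups, by -0.74 ± 0.08 against TSKM-3D cells (adjusted p = 1.03e-05) and -0.70 ± 0.08 against fibroblasts (adjusted p = 1.3e-05). Neither difference reached 2-fold.

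Among Tnfaip3 and the I kappa B family genes of the set, Tnfaip3 and Nfkbia were called higher in TSKM-3D cells than in fibroblasts. Nfkbie and Nfkbiz were not. Tnfaip3 read 6.34, 6.41 and 6.31 in fibroblasts, 8.88, 8.80 and 9.05 in TSKM-3D cells, and 6.95, 6.95 and 6.80 in iPS cells (array row 10368144). Its fibroblast level was close to the array median and its TSKM-3D level well above the upper quartile, and no groups overlapped. Tnfaip3 was 5.88-fold higher in TSKM-3D cells than in fibroblasts (2.56 ± 0.09, adjusted p = 1.78e-09), the 47th largest rise among 19937 genes. In iPS cells it was 4.04-fold lower than in TSKM-3D cells (-2.01 ± 0.09, adjusted p = 4.04e-09) and stood 0.54 ± 0.09 above fibroblasts, short of 2-fold (adjusted p = 0.000179). The values of iPS replicates 1 and 2 were equal to the last digit, so the iPS spread of this gene may be understated.

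Nfkbia read 8.58, 8.67 and 8.60 in fibroblasts, 10.32, 10.56 and 10.52 in TSKM-3D cells, and 9.32, 9.26 and 9.25 in iPS cells (array row 10400405). The groups did not overlap and had the same order as for Tnfaip3: fibroblasts lowest, iPS cells between, TSKM-3D cells highest. Nfkbia was 3.61-fold higher in TSKM-3D cells than in fibroblasts (1.85 ± 0.08, adjusted p = 1.09e-08), rank 132 among the rises, and 2.28-fold lower in iPS than in TSKM-3D cells (-1.19 ± 0.08, adjusted p = 1.92e-07). When tested directly against a 2-fold change the second difference did not pass (adjusted p = 0.183). The iPS level lay 0.66 ± 0.08 above the fibroblast level, short of 2-fold (adjusted p = 2.19e-05).

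Because Nfkbia and Tnfaip3 moved together, their promoters were read for the kappaB consensus, the 10-base sequence bound by NF-kappaB dimers, on both strands of the 250 bases before each RefSeq start (GRCm38.p6). The windows of Nfkbie, another I kappa B gene, and of Rela, which fell, are shown for comparison. Bases that match the consensus on either strand are in capitals, and overlapping matches are merged. Sequences run 5' to 3' along the gene's strand and end at the last base before the start. They lie at chr12:55492648-55492897 (minus strand) for Nfkbia, chr10:19015411-19015660 (minus strand) for Tnfaip3, chr17:45555450-45555699 (plus strand) for Nfkbie and chr19:5637291-5637540 (plus strand) for Rela.
Nfkbia: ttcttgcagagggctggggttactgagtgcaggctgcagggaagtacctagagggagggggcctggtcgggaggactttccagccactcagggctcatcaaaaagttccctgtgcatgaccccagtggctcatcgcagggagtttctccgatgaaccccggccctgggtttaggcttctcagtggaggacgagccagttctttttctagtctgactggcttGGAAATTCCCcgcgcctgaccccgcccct
Tnfaip3: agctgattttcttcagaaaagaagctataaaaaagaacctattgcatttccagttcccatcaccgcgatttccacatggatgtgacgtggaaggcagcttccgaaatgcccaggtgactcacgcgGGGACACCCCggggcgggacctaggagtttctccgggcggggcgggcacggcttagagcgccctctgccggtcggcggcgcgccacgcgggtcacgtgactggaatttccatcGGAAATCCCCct
Nfkbie: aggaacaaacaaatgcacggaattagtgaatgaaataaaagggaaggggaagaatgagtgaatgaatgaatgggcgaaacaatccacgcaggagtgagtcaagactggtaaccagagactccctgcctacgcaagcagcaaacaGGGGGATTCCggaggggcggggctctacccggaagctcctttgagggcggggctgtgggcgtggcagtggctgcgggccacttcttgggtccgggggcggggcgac
Rela: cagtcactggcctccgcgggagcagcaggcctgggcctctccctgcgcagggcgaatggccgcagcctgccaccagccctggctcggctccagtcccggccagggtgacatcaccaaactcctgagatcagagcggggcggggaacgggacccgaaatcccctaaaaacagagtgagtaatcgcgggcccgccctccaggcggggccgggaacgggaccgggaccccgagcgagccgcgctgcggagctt

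The Nfkbia window held 1 match, GGAAATTCCC, 29 to 20 bases before the start. The Tnfaip3 window held 2, of which GGAAATCCCC lay 12 to 3 bases before the start and GGGACACCCC 125 to 116 bases before it. Nfkbie held GGGGGATTCC 106 to 97 bases before its start, and the Rela window held none. A second RefSeq start of Tnfaip3 had no match in its window. Of the 7 measured genes with a promoter window, 5 had a match before at least 1 start (also Rel and Nfkb2). Rela and Ptgs2 had none in these 250 bases, and bases further upstream were not searched. Among all 27018 genes with a window 4.46% had a match. The 7 genes belong to a set chosen as NF-kappaB subunits and feedback targets, so setting them against this share is no test. A looser frame, GGGNNNNNCC on either strand, was present before a start of 48.7% of these genes and overlaps the consensus. Genes with a match thus included 2 that peaked in TSKM-3D cells, 1 that was lower in iPS cells than in fibroblasts (Rel) and 2 that were called in no comparison (Nfkbie and Nfkb2). These matches are letters in a window, and binding was not measured.

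Nfkbie encodes I kappa B epsilon, another cytoplasmic inhibitor. It read 6.48, 6.53 and 6.48 in fibroblasts, 6.15, 6.53 and 6.50 in TSKM-3D cells, and 6.48, 6.55 and 6.48 in iPS cells (array row 10445412). All 3 groups overlapped, and 4 of the 9 values were the same number to the last digit. The differences were -0.10 ± 0.10 for TSKM-3D cells against fibroblasts, 0.11 ± 0.10 for iPS against TSKM-3D cells and 0.01 ± 0.10 for iPS cells against fibroblasts. Their 95% intervals lay within -0.32 and 0.33, and their sign changed when TSKM-3D replicate 1 was left out (0.02 and -0.01 for the first and second), so no direction is given.

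Nfkbiz encodes I kappa B zeta, a nuclear member of the family that is induced by interleukin-1 and Toll-like receptor signals and cooperates with NF-kappaB at a subset of target genes. It read 8.49, 8.33 and 8.35 in fibroblasts, 8.79, 8.83 and 9.07 in TSKM-3D cells, and 7.46, 7.24 and 7.12 in iPS cells (array row 10439936). The groups did not overlap, with TSKM-3D cells highest and iPS cells lowest. The TSKM-3D excess over fibroblasts was 0.51 ± 0.11 (adjusted p = 0.00214), short of 2-fold. In iPS cells Nfkbiz was 3.08-fold lower than in TSKM-3D cells (-1.62 ± 0.11, adjusted p = 1.43e-07) and 2.17-fold lower than in fibroblasts (-1.11 ± 0.11, adjusted p = 2.52e-06). The last call was lost after quantile normalization, at -0.98.

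Ptgs2 encodes cyclooxygenase-2, which makes the common precursor of prostaglandins and is a widely used NF-kappaB target. Unlike Tnfaip3 and Nfkbia it was not highest in TSKM-3D cells. It read 11.82, 11.78 and 11.93 in fibroblasts, 11.25, 11.28 and 11.31 in TSKM-3D cells, and 10.70, 10.41 and 10.24 in iPS cells (array row 10350516). The groups did not overlap, and each stage lay below the one before it. The steps were -0.56 ± 0.11 for TSKM-3D cells against fibroblasts (adjusted p = 0.00113) and -0.84 ± 0.11 for iPS against TSKM-3D cells (adjusted p = 4.37e-05), both short of 2-fold, and iPS cells were 2.63-fold lower than fibroblasts (-1.40 ± 0.11, adjusted p = 3.51e-07). The iPS arrays still read above 10 for this gene. The mean log2 value of the 15 fibroblast markers was 8.66 to 8.77 on the same arrays, against 11.46 to 11.50 on the fibroblast arrays. Single markers spread widely about that mean in iPS cells, where Lum averaged 4.48 and Vim 11.95. Being from other probes, the marker mean does not show whether the Ptgs2 level stands out. The iPS group alone was grown on feeder cells, and the part of such cells in the Ptgs2 reading was not tested.

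**Figure D2:**
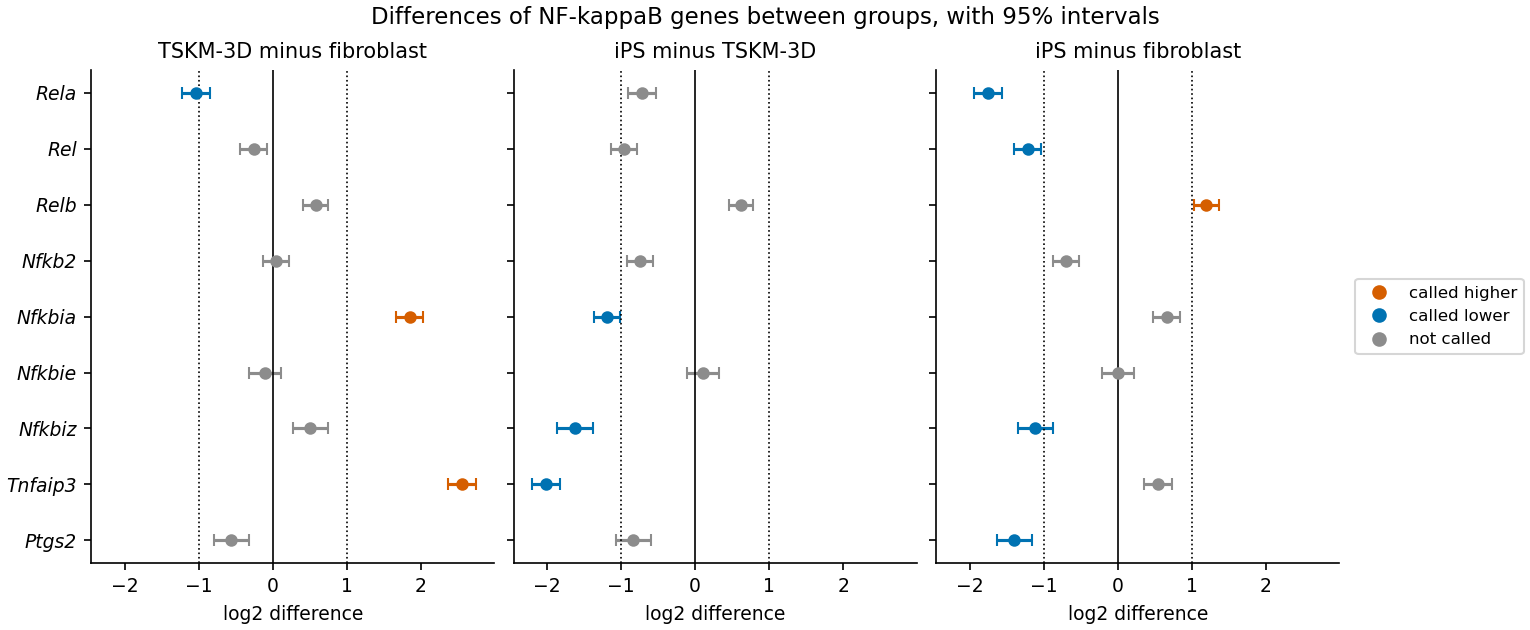
Log2 differences (horizontal axis) of the 9 genes (rows) in the 3 comparisons, with bars for 95% intervals, dotted lines at a 2-fold change, and colours for genes called higher, called lower or not called. Tnfaip3 (2.56) and Nfkbia (1.85) stand to the right in TSKM-3D cells against fibroblasts, and Relb (1.20) alone passes the line to the right in iPS cells against fibroblasts.

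Set against all genes, the 9 genes were counted as follows. They were chosen with earlier results of these data known, so the counts are no test. In TSKM-3D cells against fibroblasts 2 were higher (Tnfaip3 and Nfkbia) and 1 lower (Rela), where 3.25% of all genes were higher and 7.58% lower, 10.8% in all. The arrays of the groups did not overlap for 7 of the 9, and for 53.1% of all genes. The median difference of the 9 was 0.05, equal to that of all genes at this rounding. In iPS cells against TSKM-3D cells 0 were higher and 3 lower (Tnfaip3, Nfkbiz and Nfkbia), against 6.48% and 8.57% of all genes, 15.1% in all. The groups did not overlap for 8 of the 9 and for 49.5% of all genes, and the median difference was -0.84 against -0.01 for all genes. Tnfaip3 and Nfkbia are called in both of these comparisons, which share the TSKM-3D arrays. In iPS cells against fibroblasts 1 was higher (Relb) and 4 lower (Rela, Ptgs2, Rel and Nfkbiz), against 7.63% and 13.8% of all genes, 21.5% in all. Here 8 of the 9 did not overlap, against 65% of all genes, and the median difference was -0.70 against 0.05. With no fold requirement 7, 8 and 8 of the 9 passed the adjusted p in these comparisons, taken in the same order, where 44.6%, 45.6% and 54.6% of all genes did. Tested directly against a 2-fold change, Rela in TSKM-3D cells against fibroblasts did not pass (adjusted p = 1), nor did Rel (0.0788), Relb (0.0707) and Nfkbiz (0.823) in iPS cells against fibroblasts.

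The wider pathway was read from 7 lists with 148 named genes on the array. One list, of 22 prostaglandin genes, holds genes that act with Ptgs2 rather than parts of the NF-kappaB pathway. It is counted here with the pathway genes and held 6, 4 and 8 of the calls in the 3 comparisons that follow. In TSKM-3D cells against fibroblasts 8 were higher and 27 lower (23.6%), in iPS against TSKM-3D cells 11 higher and 26 lower (25%), and in iPS cells against fibroblasts 6 higher and 41 lower (31.8%). Each share was above the share of all genes called in that comparison, while single lists lay above, near or below it. The lists were chosen with earlier results of these data known, so setting their shares against all genes is no test. Shares below are given for TSKM-3D cells against fibroblasts, iPS against TSKM-3D cells and iPS cells against fibroblasts, in that order. The medians of the 148 genes lay below those of all genes, at -0.06, -0.10 and -0.21 against 0.05, -0.01 and 0.05, by the most in iPS cells against fibroblasts.

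**Figure D3:**
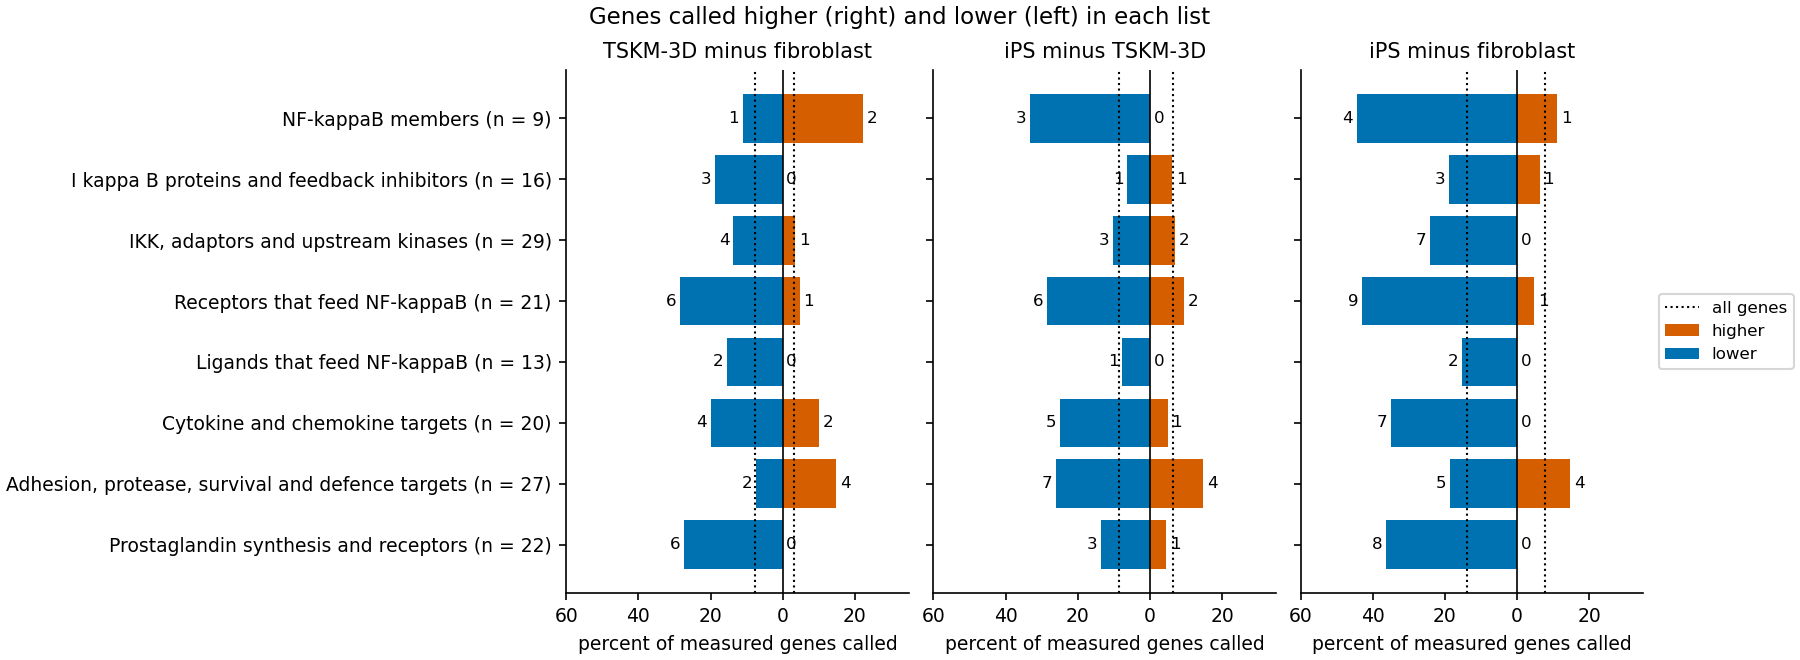
Percent of measured genes (horizontal axis) called higher, to the right, and lower, to the left, in each list (rows) and comparison, with the number of genes beside each bar and dotted lines at the percent of all genes called. In iPS cells against fibroblasts 9 of 21 receptor genes and 8 of 22 prostaglandin genes were lower.

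No other measured I kappa B or feedback gene was called higher in TSKM-3D cells than in fibroblasts. Of 16 further I kappa B and feedback genes 0 were higher and 3 lower in TSKM-3D cells than in fibroblasts. The share called was 18.8%, 12.5% and 25% in the 3 comparisons, against 10.8%, 15.1% and 21.5% of all genes. It was below that of all genes in iPS against TSKM-3D cells and near it in iPS cells against fibroblasts. The largest rises in TSKM-3D cells against fibroblasts fell short of 2-fold. They were Otud7b (0.83 ± 0.08 SE), Tnip2 (0.76 ± 0.08) and Cyld (0.65 ± 0.13), each without overlap of the arrays. Otud7b and Tnip2 also had the order of Nfkbia, with iPS means (7.99 and 7.21) between the fibroblast (7.54 and 6.88) and TSKM-3D means (8.37 and 7.65). Bcl3, a nuclear I kappa B protein, averaged 7.32 ± 0.37 in TSKM-3D cells and 9.32 ± 0.07 in fibroblasts (SD, n = 3 each; 4.01-fold lower, adjusted p = 6.21e-07). Nfkbib, which encodes I kappa B beta, averaged 9.21 in TSKM-3D cells and 10.36 in fibroblasts (-1.16 ± 0.09 SE), and Usp18, an interferon-induced protease gene, differed by -1.43 ± 0.15. In iPS against TSKM-3D cells Usp18 was higher by 2.67 ± 0.15 and Cyld, a deubiquitinase gene that restrains NF-kappaB, lower by 1.69 on the log2 scale (6.88 in iPS and 8.57 in TSKM-3D cells). In iPS cells against fibroblasts 1 was higher (Usp18, 1.24 ± 0.15) and 3 lower, Bcl3 by -1.10, Pdlim2, which encodes a ligase for p65, by -1.08 and Cyld by -1.04. The 3 fibroblast values of Cyld were identical, so its spread is understated, and its last call was lost after quantile normalization (-0.98) and without iPS replicate 1 (-0.94). Bcl3 lost its last call after quantile normalization (-0.93), and Pdlim2 without iPS replicate 2 (-0.99).

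Among 29 kinase and adaptor genes 1 was higher and 4 lower in TSKM-3D cells than in fibroblasts. The share called was 17.2%, 17.2% and 24.1% in the 3 comparisons, the second and the third near the 15.1% and 21.5% of all genes and the first above 10.8%. Malt1, a paracaspase gene, was higher, at 7.73 ± 0.09 in TSKM-3D cells and 6.34 ± 0.12 in fibroblasts (SD, n = 3 each; adjusted p = 3.18e-07). Irak3, which encodes a kinase-like inhibitor of Toll-like receptor signalling, was lower, at 6.51 ± 0.26 and 8.61 ± 0.19 in the same order (adjusted p = 1.38e-07). Birc3, an inhibitor-of-apoptosis gene and NF-kappaB target, was lower by 1.37 and the adaptor gene Ticam1 by 1.12 on the log2 scale, and Ticam1 lost its call after quantile normalization (-0.98). In iPS against TSKM-3D cells 2 were higher (Irak3 by 1.48, and by 1.15 Rnf31, which encodes a subunit of the linear ubiquitin ligase) and 3 lower (Tab2 by -1.37, Malt1 by -1.34 and Traf5 by -1.16). Between iPS cells and fibroblasts 0 were higher and 7 lower. Myd88, the adaptor of interleukin-1 and Toll-like receptors, averaged 7.96 ± 0.07 in iPS cells and 9.69 ± 0.09 in fibroblasts (SD, n = 3 each; log2 difference -1.73, adjusted p = 3.49e-09), Tab2 differed by -1.63 and Birc3 by -1.57.

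Of 21 receptor genes 1 was higher and 6 lower in TSKM-3D cells than in fibroblasts. The share called was 33.3%, 38.1% and 47.6% in the 3 comparisons, against 10.8%, 15.1% and 21.5% of all genes. Lower calls outnumbered higher ones among all genes too, 1511 to 648 in TSKM-3D cells against fibroblasts and 2761 to 1522 in iPS cells against fibroblasts. The gene higher was Tnfrsf12a, the receptor of TWEAK, at 10.90 ± 0.08 in TSKM-3D cells and 9.34 ± 0.04 in fibroblasts (SD, n = 3 each; adjusted p = 3.63e-08). Ly96, the MD-2 partner of Toll-like receptor 4, averaged 6.97 ± 0.47 in TSKM-3D cells and 9.56 ± 0.17 in fibroblasts (adjusted p = 7.8e-07), Tnfrsf1b differed by -1.33 ± 0.14 and Cd14 by -1.30 ± 0.10. In iPS against TSKM-3D cells 2 were higher (Tnfrsf1b by 1.62 and Tnfrsf21 by 1.03) and 6 lower, Ly96 by -2.35, Il1rap by -2.33 and Tnfrsf12a by -2.03. Tnfrsf21 lost its call with array medians set equal (0.91), without TSKM-3D replicate 1 (0.86) and without iPS replicate 3 (0.99). Between iPS cells and fibroblasts 1 was higher and 9 lower. Tnfrsf1a, the main receptor of tumour necrosis factor, averaged 7.76 ± 0.15 in iPS cells and 10.87 ± 0.04 in fibroblasts (SD, n = 3 each; log2 difference -3.11, adjusted p = 1.35e-10), Ly96 differed by -4.94 with an iPS mean of 4.62, in the range of the lower quartiles, and Il1rap differed by -2.48. The gene higher, Tnfrsf19, at 1.01, lost its call after quantile normalization (0.92), with medians set equal (0.84), and without fibroblast replicate 1 (0.94), fibroblast replicate 3 (0.99) or iPS replicate 2 (0.99).

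Several of these genes are also expressed by macrophages, and macrophage markers differed between the same arrays. Of 17 measured markers 5 were lower and 0 higher in TSKM-3D cells than in fibroblasts, and 5 lower and 2 higher in iPS cells than in fibroblasts. The shares called were 29.4% and 41.2%, against 10.8% and 21.5% of all genes. The 5 lower in TSKM-3D cells were Lyz2 (5.17 against 9.18 in fibroblasts), Cd53 (5.31 against 8.22), Laptm5 (6.13 against 8.16), C1qb (5.62 against 7.24) and Fcer1g (5.68 against 7.23), each above the array medians in fibroblasts. Of the 17 markers 11 lay above the array median on every fibroblast array, against 1 or 2 on the TSKM-3D arrays and 2 or 3 on the iPS arrays. Their mean log2 value was 5.46 to 5.69 on TSKM-3D arrays, 6.05 to 6.08 on iPS arrays and 6.51 to 6.61 on fibroblast arrays. Their summed linear level was 877 to 1027, 2890 to 3268 and 2266 to 2415 in the same order, the iPS sum including Laptm5 (10.62 in log2) and Cd68 (9.59). Among other markers of the list Ptprc averaged 5.02, 4.79 and 5.17 and Adgre1 4.74, 4.85 and 5.07 in the same order, all below the array medians, and Csf1r 5.65, 5.96 and 6.58, above them in fibroblasts. The part of such cells in the receptor, adaptor and ligand differences was not tested. Of 11 endothelial, 8 lymphocyte and 10 keratinocyte markers 0 were called in TSKM-3D cells against fibroblasts. In iPS cells 1 of each list was higher than in fibroblasts (Pecam1, Cd3g and Sfn). That was 9.09%, 12.5% and 10% of the lists, against 7.63% of all genes called higher.

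Of 13 ligand genes 2 were lower in TSKM-3D cells than in fibroblasts, 1 in iPS than in TSKM-3D cells and 2 in iPS cells than in fibroblasts, with 0 higher. These shares were 15.4%, 7.69% and 15.4%, against 10.8%, 15.1% and 21.5% of all genes. Il1rn, the interleukin-1 receptor antagonist gene, averaged 7.47 in TSKM-3D cells and 8.71 in fibroblasts (-1.23 ± 0.08 SE, adjusted p = 2.34e-07). It was lower by 1.11 again in iPS against TSKM-3D cells. All its TSKM-3D values were identical, so its spread is understated. Il18 differed by -1.25 ± 0.15 in TSKM-3D cells and by -1.96 ± 0.15 in iPS cells, each against fibroblasts.

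Of 20 cytokine and chemokine targets 2 were higher and 4 lower in TSKM-3D cells than in fibroblasts. The share called was 30%, 30% and 35% in the 3 comparisons, against 10.8%, 15.1% and 21.5% of all genes. Lif, the gene of the self-renewal cytokine that was also in the medium as protein, averaged 7.99 ± 0.13 in TSKM-3D cells and 6.60 ± 0.09 in fibroblasts (SD, n = 3 each; adjusted p = 3.87e-07), and Ccl20 was higher by 1.39 ± 0.11 SE. Cxcl12 differed by -2.56, Cx3cl1 by -1.95 and Csf1 by -1.25 (highest adjusted p among these, 5e-07). In iPS against TSKM-3D cells 1 was higher (Cxcl16 by 1.09, or 0.98 and not called with array medians set equal) and 5 lower, Cxcl5 by -2.93, Ccl7 by -2.04 and Csf1 by -1.98. Relative to fibroblasts 0 were higher and 7 lower in iPS cells, with Csf1, the macrophage growth factor gene, at 7.65 ± 0.14 in iPS cells and 10.89 ± 0.03 in fibroblasts (SD, n = 3 each; log2 difference -3.24), Cxcl5 at -3.13 and Cxcl12 at -2.81.

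Of 27 adhesion, protease, survival and defence targets 4 were higher and 2 lower in TSKM-3D cells than in fibroblasts. In the 3 comparisons 22.2%, 40.7% and 33.3% were called, against 10.8%, 15.1% and 21.5% of all genes. Fas, the death receptor gene, averaged 8.50 ± 0.29 in TSKM-3D cells and 6.02 ± 0.04 in fibroblasts (SD, n = 3 each; adjusted p = 1.96e-07), the kinase gene Pim1 was higher by 1.34 ± 0.07 SE and the pentraxin gene Ptx3 by 1.14 ± 0.12, and the matrix metalloproteinase genes Mmp9 and Mmp13 differed by -2.08 and -1.80. In iPS against TSKM-3D cells 4 were higher and 7 lower. The acute-phase gene Saa3 averaged 9.30 ± 0.13 in iPS cells and 5.53 ± 0.07 in TSKM-3D cells (SD, n = 3 each; adjusted p = 3.51e-10), the adhesion gene Icam1 was higher by 1.24 and Lcn2 by 1.13, while Vcam1 differed by -4.83, Fas by -3.45 and Ptx3 by -2.79. Icam1 and Vcam1, both leukocyte adhesion genes, stood on opposite sides in iPS cells against fibroblasts, at 1.87 ± 0.08 and -3.85 ± 0.08 SE. In that comparison 4 were higher and 5 lower, with Saa3 at 3.84, Pim1 at 1.96, Plau, the urokinase gene, at -3.02 and Ptx3 at -1.64. All fibroblast values of Ptx3 were identical, so its spread is understated.

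Ptgs2 was not alone among prostaglandin genes in being lower in iPS cells than in fibroblasts. Of 22 prostaglandin synthesis, transport and receptor genes 0 were higher and 6 lower in TSKM-3D cells than in fibroblasts. In the 3 comparisons 27.3%, 18.2% and 36.4% were called, the second near the 15.1% of all genes and the others above 10.8% and 21.5%. The prostaglandin transporter gene Slco2a1 averaged 6.56 ± 0.20 in TSKM-3D cells and 9.89 ± 0.14 in fibroblasts (SD, n = 3 each; adjusted p = 1.52e-09), the prostaglandin E synthase gene Ptges 8.24 ± 0.09 and 10.60 ± 0.05, and the prostacyclin synthase gene Ptgis 7.62 ± 0.14 and 9.88 ± 0.03. In iPS against TSKM-3D cells 1 was higher (Slco2a1 by 1.39) and 3 lower. Pla2g4a, the phospholipase gene that frees arachidonic acid for cyclooxygenases, averaged 6.33 ± 0.12 in iPS cells and 9.43 ± 0.09 in TSKM-3D cells (SD, n = 3 each; adjusted p = 2.07e-10), and the receptor genes Ptger4 and Ptgfr differed by -2.64 and -2.27. Relative to fibroblasts 0 were higher and 8 lower in iPS cells, with Pla2g4a at -3.91, Ptgfr at -3.78 and Ptger4 at -2.15. All TSKM-3D values of Ptgfr and all iPS values of Ptges were identical. Pla2g4a read 9.479 on TSKM-3D replicates 1 and 3 and 10.192 on fibroblast replicates 1 and 2, and Slco2a1 read 7.976 on iPS replicates 1 and 3. The spreads of these genes are thus understated.

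For each of the 7 genes called in some comparison, the 3 genes nearest in profile were found among 18603 genes, by the root mean square difference over the 9 arrays after centring each gene on its own mean. Nearest to Tnfaip3 were Aldh3a1 (0.09), Bpgm (0.13) and Hbegf (0.16), which were higher by 2.55, 2.48 and 2.34 in TSKM-3D cells against fibroblasts. Nearest to Nfkbia were Egr3 (0.11), Sox21 (0.14) and Ptp4a3 (0.14). Both sets peaked in TSKM-3D cells, which follows from choosing them by profile on these same arrays. Nearest to Rela were Myd88 (0.07), Ids (0.07) and Tead3 (0.07), and nearest to Rel were Fam3a, Zkscan3 and Thsd7a (0.07 to 0.09). Nearest to Relb were Dbr1, Hdac6 and Ubxn1 (0.05 to 0.06), to Nfkbiz Marchf3, Prkce and Tmcc3 (0.06 to 0.10), and to Ptgs2 Atp8b4, Nxt2 and Pla2g7 (0.05 to 0.08). The neighbours depended on the arrays and the scaling. Of the 21 pairs 10 were found again after quantile normalization, 11 without iPS replicate 1, 12 without fibroblast replicate 1 and 13 without iPS replicate 3.

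**Figure D4:**
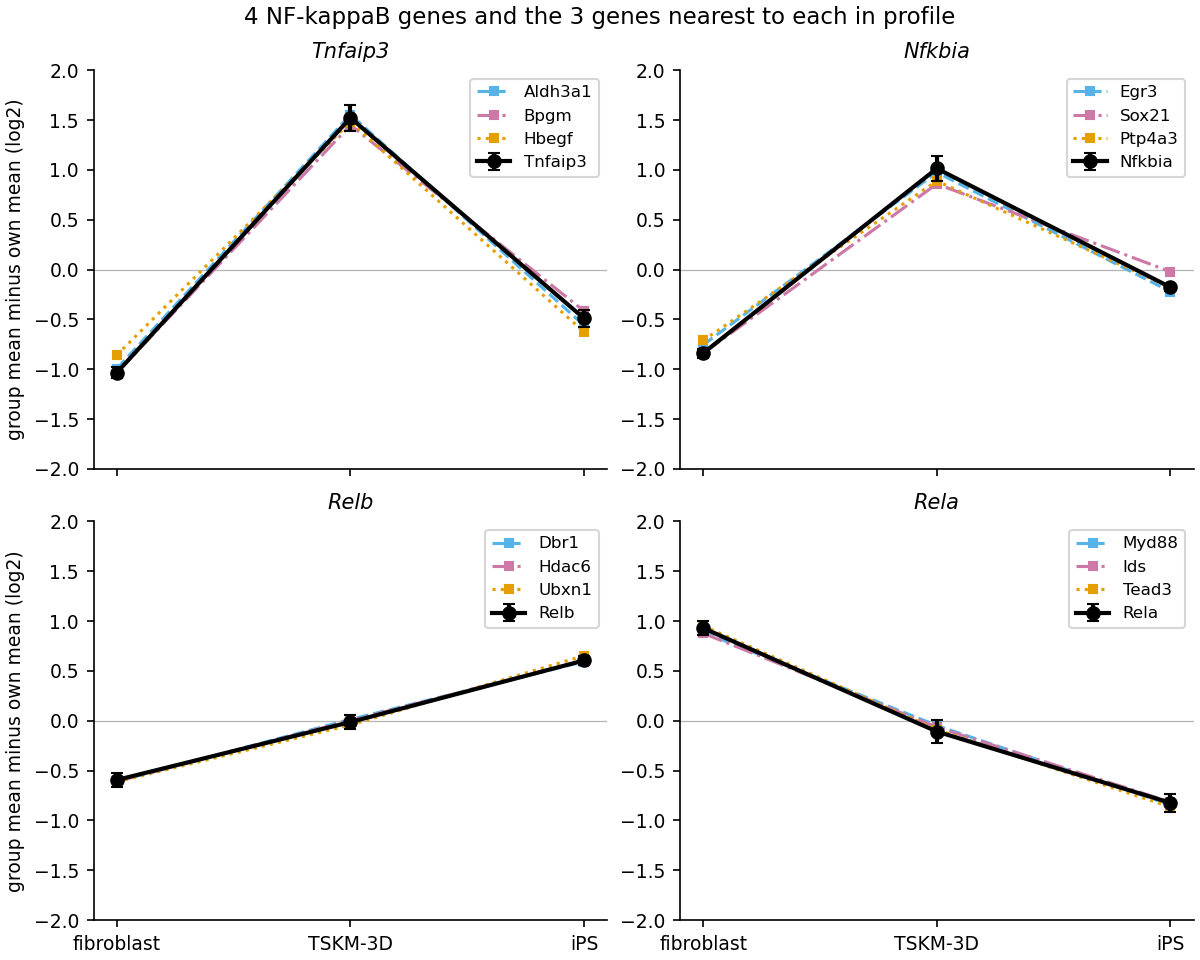
Group means of 4 genes and of the 3 genes nearest to each in profile, with each gene's own mean subtracted (vertical axis, log2), by stage on the horizontal axis, and bars for 1 SD of the named gene (n = 3). Tnfaip3 and Nfkbia peak in TSKM-3D cells, whereas Relb and Rela move one way over the stages, by 1.20 and -1.75 between fibroblasts and iPS cells. The neighbours were chosen for likeness over these same arrays, so their shared shapes follow from the choice.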

How the data were processed

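RNA of 9 samples was labelled with biotin by an Affymetrix kit, per the labels' protocols, and measured on 1 array each. The authors deposited log2 expression values for 34760 array rows; how they made these log2 values comparable is not given in the sources used here, and they were used as deposited. Symbols came from GEO's platform annotation, which can be old: 21640 rows had 1 symbol, 1321 several and 11799 were not listed there. A gene was its row with the highest mean over 9 arrays. Groups came from the titles. One limma model (version 3.58.1, R 4.3.3, lmFit and eBayes, no covariate) covered the 3 groups, with Benjamini-Hochberg adjustment over 19937 genes, and the test was checked on simulated data. The 10 genes, the pathway lists and the marker lists were chosen with earlier results of these data known. Named pathway genes were the up to 3 largest called rises and falls per list and comparison. Some listed genes have no named row and were not analysed here. Promoters came from RefSeq, GRCm38.p6. Pairs of arrays held 490 to 1643 equal values, so some spreads are understated. This includes genes whose equal values are not mentioned above, such as Il18, Traf5 and Vcam1. The alternatives were other scaling, other rows, no dim genes, the 2 groups alone, other thresholds, a replicate block, each array left out and the third fibroblast array placed with TSKM-3D. The number of arrays limits the precision.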

Additional observations from a re-analysis of the deposited data

How the results depend on the processing

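Leaving out 1 array gave 2 to 3 of the 9 genes called in TSKM-3D cells against fibroblasts, 3 to 4 in iPS against TSKM-3D cells and 5 in each run of iPS cells against fibroblasts, and 35 to 39, 37 to 40 and 45 to 49 pathway genes. With no fold requirement 7, 8 and 8 of the 9 genes and 81, 93 and 105 pathway genes passed. Tested directly against 2-fold, 2 of the 9 genes remained called in iPS cells against fibroblasts (Rela and Ptgs2) and 17 pathway genes in TSKM-3D cells against fibroblasts. With the third fibroblast array placed with TSKM-3D, 0 of the 9 genes and 0 pathway genes were called in TSKM-3D cells against fibroblasts by limma, with 3 and 59 at an unadjusted p under 0.05, and Tnfaip3 differed by 1.88 (adjusted p = 0.165). The same placement gave 0 calls among all 19937 genes, and 5359 at an unadjusted p under 0.05.

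Between groups, deviations of same-numbered arrays from their group means correlated at -0.10 to 0.06, and those of differently numbered arrays at -0.13 to 0.13. The numbers in the titles thus showed no pairing, but with 3 arrays a group a shared preparation is not excluded. With a replicate block 3, 3 and 5 of the 9 genes and 35, 37 and 47 pathway genes were called. Setting array medians equal gave a median difference over all genes of -0.13, against -0.01 as deposited, for iPS against TSKM-3D cells, and of -0.12, against 0.05, for iPS cells against fibroblasts. It gave Nfkb2 -0.007 in TSKM-3D cells against fibroblasts, and Nfkbie -0.005 and -0.163 in iPS against TSKM-3D cells and against fibroblasts. Nfkbie in iPS cells against fibroblasts was -0.115 after quantile normalization and -0.002 under the placement above, and -0.017 to 0.024 with 1 array left out. For TSKM-3D cells against fibroblasts leaving out 1 array gave Nfkbie -0.171 to 0.016, and for iPS against TSKM-3D cells -0.009 to 0.178. None of these uncalled values has a settled sign, and the cause was not tested. Signal over background was not measured, so differences from dim readings are uncertain in size.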

Other observations

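Of the classical inducers of the pathway, Tnf and Il1b were dim in every group. These genes were chosen after their values were seen. Tnf, the tumour necrosis factor gene, read 5.24 to 5.88 on TSKM-3D arrays, 5.37 to 5.58 on iPS arrays and 5.58 to 5.65 on fibroblast arrays, all below the array medians, and it differed by -0.03 ± 0.14 SE in TSKM-3D cells against fibroblasts (limma, adjusted p = 0.863). Il1b, the interleukin-1 beta gene, read 5.08 to 5.21 on TSKM-3D arrays, 5.05 to 5.21 on iPS arrays and 4.92 to 4.96 on fibroblast arrays. It differed by 0.18 ± 0.08 in TSKM-3D cells against fibroblasts (limma, adjusted p = 0.0689). Some other ligand genes were not dim. Tnfsf11 averaged 8.23 in TSKM-3D cells, 8.31 in iPS cells and 8.57 in fibroblasts, and Il18 averaged 6.49 in fibroblasts, all above the array medians. Il6, a cytokine target, read 6.25 to 7.16 on TSKM-3D arrays, against 6.24 to 6.47 on fibroblast arrays, and these groups overlapped. The mitochondrial dismutase gene Sod2, another common target, stood 0.98 ± 0.09 above TSKM-3D cells in iPS cells (11.03 in iPS and 10.04 in TSKM-3D cells, adjusted p = 2.59e-06), short of 2-fold. Tnip1, which encodes a partner of A20, stood 0.28 ± 0.08 above fibroblasts in TSKM-3D cells and 0.58 ± 0.08 above them in iPS cells.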
